A study of Mus musculus with 12 samples.

Results

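The transcripts of 10 genes used as markers of pericytes and vascular smooth muscle, together called mural cells, were followed in sorted cells of the mouse fetal ovary. The genes were Pdgfrb, Notch3, Cspg4, Mcam, Rgs5, Kcnj8, Abcc9, Acta2, Myh11 and Des, taken by symbol from the deposited gene counts, and all 10 were found among 54532 genes. Bulk RNA-seq had been performed on 12 libraries from E15.5 ovaries (E, embryonic day). All embryos carried the Pou5f1-ΔPE-eGFP transgene, labelled Tg(Pou5f1-EGFP)2Mnn, whose enhancer fragment drives GFP in germ cells. Pregnant dams had received intraperitoneal dexamethasone (dex), a synthetic glucocorticoid, at 10 μg per g of body weight, or saline, once a day from E12.5 to E15.5. Germ cells (GFP-positive) and the remaining GFP-negative somatic cells were then sorted, which gave 4 groups of 3 libraries, since each cell type was taken after dex and after saline. Each library pooled ovaries of several litters. The GFP-negative gate took every live cell without the reporter, so the somatic libraries could hold pregranulosa cells, stroma, endothelium, blood cells and mural cells together.

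Pericytes and smooth muscle cells wrap the outside of the endothelial tube. Endothelial PDGF-B recruits mural cells through the receptor tyrosine kinase encoded by Pdgfrb, and contact with Notch ligands on endothelium signals to mural NOTCH3. Contractile tone depends on smooth muscle actin and myosin, and an ATP-sensitive potassium channel built from the KIR6.1 pore (Kcnj8) and the SUR2 sulphonylurea receptor (Abcc9) links the metabolic state of the cell to its membrane potential. None of the 10 genes is exclusive to these cells: Pdgfrb, Cspg4 and Acta2 also occur in other mesenchyme, Mcam in endothelium, and Des in skeletal and cardiac muscle.

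Library depth was similar throughout. Germ libraries held 14658503 to 17616664 counts and somatic libraries 15161804 to 18245507, so that 3 counts, taken as the floor of detection, corresponded to 0.169 to 0.196 CPM, the count scaled to library size with TMM factors. Pairs of libraries within every group differed beyond sampling noise, with a chi-square per degree of freedom of 5.48 to 21.8. The 21.8 belonged to replicates 2 and 3 of the somatic dex group, and replicate 3 of that group was the lowest dex library for 9 of the 10 markers (all but Myh11) and for 35.1% of all genes tested. Log2 changes of the markers in somatic cells are therefore also given without it. Leaving out a library picked for low marker values raises the dex side, so these fits are no separate support. The labels call the libraries of a group biological replicates, and p-values measure the spread between these pooled libraries only.

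Dex changed 4 of the 10 markers in the somatic cells, where 8.18% of all genes tested were called. The markers were chosen with earlier results of these data known, so the 2 shares are not an independent comparison. Transcripts of Cspg4, Kcnj8 and Abcc9 rose 2.08-fold, 1.71-fold and 1.47-fold, and those of Mcam fell to 0.730 of the saline level. For Pdgfrb, Notch3, Rgs5, Acta2, Myh11 and Des no difference passed the test. No marker passed the test for dex in germ cells, and all 10 were lower in germ cells than in somatic cells after saline, as were 42.9% of all genes, Mcam by far the least.

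Kcnj8 and Abcc9, the 2 subunit genes of the channel, lie next to each other on the minus strand of mouse chromosome 6. In the GRCm38 coordinates of the deposited annotation, Kcnj8 spans chr6:142564837-142571614 and Abcc9 spans chr6:142587862-142702315, with 16247 bases and no annotated gene between them. Cspg4, which encodes the NG2 proteoglycan, lies on the plus strand at chr9:56865033-56899870. The promoters of these 3 genes, which rose together in the soma, are shown with that of Acta2, the smooth muscle actin gene (minus strand, chr19:34241090-34255336), for which no difference passed the test. Each sequence is 300 bases of the gene's own strand from RefSeq (GRCm38.p6), with 250 bases before the RefSeq start and 50 after it. That start can differ from the end of the deposited gene span, as it does for Cspg4, Abcc9 and Acta2. The windows are chr9:56864854-56865153 for Cspg4, chr6:142571565-142571864 for Kcnj8, chr6:142702225-142702524 for Abcc9 and chr19:34255324-34255623 for Acta2. Capitals mark matches, on either strand, to a glucocorticoid half-site (AGAACA or TGTTCT), to the core bound by the Notch effector RBPJ (TGGGAA or TTCCCA) or to the CArG box of serum response factor with up to 1 mismatch.
Cspg4: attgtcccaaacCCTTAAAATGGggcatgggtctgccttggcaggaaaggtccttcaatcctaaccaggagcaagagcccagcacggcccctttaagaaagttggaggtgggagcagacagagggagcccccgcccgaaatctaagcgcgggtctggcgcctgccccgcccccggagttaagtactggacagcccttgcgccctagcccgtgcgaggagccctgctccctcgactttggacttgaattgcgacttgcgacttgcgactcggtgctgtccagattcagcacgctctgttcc
Kcnj8: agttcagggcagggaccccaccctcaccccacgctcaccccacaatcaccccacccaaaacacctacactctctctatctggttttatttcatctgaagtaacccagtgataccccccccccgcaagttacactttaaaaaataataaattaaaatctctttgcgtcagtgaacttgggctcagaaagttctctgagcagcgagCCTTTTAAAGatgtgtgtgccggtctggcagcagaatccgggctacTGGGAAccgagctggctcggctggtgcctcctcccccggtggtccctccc
Abcc9: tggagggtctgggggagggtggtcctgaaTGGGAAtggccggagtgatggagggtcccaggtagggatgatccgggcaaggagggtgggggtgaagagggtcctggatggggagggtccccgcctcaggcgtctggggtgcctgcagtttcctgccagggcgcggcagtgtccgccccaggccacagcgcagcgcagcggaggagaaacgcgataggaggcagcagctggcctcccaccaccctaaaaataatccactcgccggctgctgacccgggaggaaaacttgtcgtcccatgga
Acta2: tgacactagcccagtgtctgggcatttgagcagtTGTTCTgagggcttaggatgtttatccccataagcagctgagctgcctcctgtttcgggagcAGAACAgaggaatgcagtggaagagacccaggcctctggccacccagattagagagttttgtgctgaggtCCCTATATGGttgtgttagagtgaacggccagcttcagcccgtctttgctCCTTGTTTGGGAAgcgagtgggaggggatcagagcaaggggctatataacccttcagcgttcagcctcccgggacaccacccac

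Promoters were listed for 8 of the 10 markers, the exceptions being Pdgfrb and Myh11. The half-site letters were present in 1 of these 8 windows, that of Acta2, where they began 216 and 154 bases before the start. Over 32851 promoters of the same length, 19% held them. The windows of Cspg4, Kcnj8 and Abcc9 held no half-site, which says only that these letters are not within the 300 bases. RBPJ core letters were in 3 of the 8 windows: at the RefSeq start of Kcnj8, 221 bases before the start of Abcc9 and 27 bases before that of Acta2. The share over all promoters was 25.6%. CArG matches with 1 mismatch were also in 3 windows against 21.1% of all promoters. They began 46 bases before the start of Kcnj8, 84 and 34 bases before that of Acta2, and 238 and 237 bases before that of Cspg4, where the 2 matches overlap. In Acta2 the nearer CArG match and the RBPJ core share bases. An exact CArG box was in none of the 8 windows and in 1.63% of all promoters.

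Levels can be compared between genes per length of exon, for which the deposited FPKM values (fragments scaled to exon length and depth) served. In saline somatic cells Pdgfrb stood highest at 63.5 ± 2.35 FPKM (SD, n = 3), above 96.7% of 16343 genes with a mean of at least 10 counts. Acta2 followed at 61.8 ± 2.30 FPKM, and the ranges of these 2 genes over libraries overlapped. Notch3, at 28.4 ± 0.728 FPKM, and Des, the gene of the muscle intermediate filament desmin, at 27.2 ± 1.59 FPKM, formed the next pair and also overlapped. Below them, without overlap between neighbours, came Mcam at 21.5 ± 1.71 FPKM, Kcnj8 at 12.3 ± 0.647 FPKM, Rgs5 at 9.02 ± 0.766 FPKM and Abcc9 at 6.39 ± 0.556 FPKM. Cspg4 at 4.50 ± 0.204 FPKM and Myh11 at 4.26 ± 0.229 FPKM closed the order and overlapped, Myh11 standing above 45.3% of the same genes. The genes of the 2 channel subunits, which assemble in equal numbers, thus differed in FPKM, Kcnj8 lying above Abcc9 in every somatic library. This order rests on the exon length deposited for each gene, 2548 bases for Kcnj8 and 8373 for Abcc9. In CPM, which is not scaled to length, Abcc9 lay above Kcnj8 in every somatic library. After dex, Mcam (15.7 ± 0.431 FPKM) lay below Kcnj8 (20.9 ± 2.21 FPKM), and Cspg4 (9.36 ± 1.63 FPKM) and Abcc9 (9.37 ± 0.524 FPKM) overlapped.

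**Figure D1:**
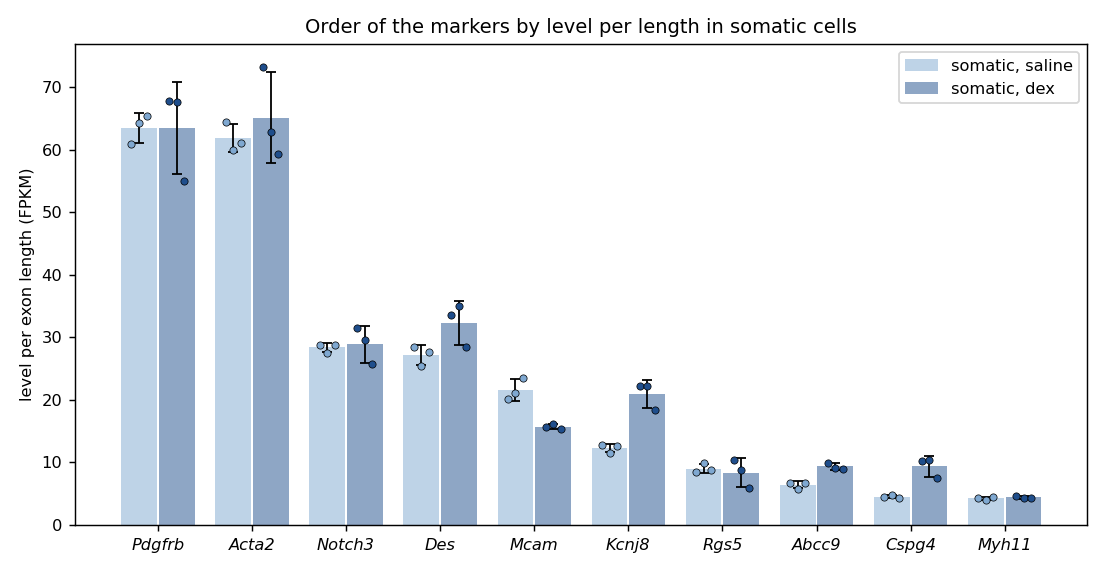
Level per exon length (FPKM, linear axis from 0) of the 10 markers in somatic cells after saline (light) and dex (dark), with bars for means, error bars for SD and points for the 3 libraries of each group. Pdgfrb and Acta2 stand above 50 FPKM in every library, and in saline the lowest 2 genes are Cspg4 and Myh11.

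The label of smooth muscle was checked against genes outside the list, chosen after their values were seen. Of 21 contractile genes and regulators, 9 were under 2 FPKM in saline somatic cells and 12 were not. Several transcripts used to define differentiated smooth muscle were among the 9: Tagln was at 1.08 FPKM, Cnn1 at 1.29 FPKM, Actg2 at 1.68 FPKM, Lmod1 at 0.388 FPKM and Pln at 0.155 FPKM. Of 20 other mural genes, 10 were under 2 FPKM. Among them, Higd1b (0.330 FPKM) and Vtn (0.298 FPKM) were low. Myl9 (146 FPKM) and Mylk (20.5 FPKM), the light chain and light chain kinase that smooth muscle shares with other contractile cells, were well detected. So were Csrp1 (80.3 FPKM), Tpm1 (51.8 FPKM), Cald1 (29.7 FPKM), Itga8 (23.4 FPKM) and Smtn (19.2 FPKM) of the same 21 genes, not all of them contractile. On the mural side Anpep (18.5 FPKM), S1pr3 (13.0 FPKM), Ndufa4l2 (8.88 FPKM), Heyl (7.48 FPKM) and Cox4i2 (5.69 FPKM) were detected as well. These bulk libraries therefore held the 10 markers at clear levels beside a mixture of low and well detected genes of mature smooth muscle and pericytes, and the cells that carried the markers cannot be named from them. Of the regulators of skeletal muscle, another source of Des, Myod1 averaged 0.0627 CPM after saline and 0 CPM after dex, and Myog at 0.0620 and 0.0773 CPM, all under the floor of 3 counts. The summed level of 10 skeletal muscle genes was 30.2 to 40.5 CPM after saline and 34.4 to 41.2 CPM after dex, most of it from Myh8, a developmental myosin heavy chain, at 29.5 ± 4.97 and 32.0 ± 3.52 CPM (SD, n = 3).

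The question of the study was how fetal germ and somatic cells of the ovary respond to glucocorticoid. Dex was compared with saline in somatic cells with edgeR's quasi-likelihood test over 16556 genes, and a gene was called at a Benjamini-Hochberg adjusted p of at most 0.05. Of all genes tested, 8.18% were called in either direction and 4.81% were called higher. Among the markers, chosen with earlier results of these data known, 4 of 10 were called, 3 of them higher. In bulk libraries, more cells of a type and more RNA per cell cannot be told apart. The median log2 change of the 10 markers was 0.06, against 0.000142 over all genes. It was 0.12 without dex replicate 3 and -4.63e-05 without dex replicate 1.

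Cspg4 had the largest fitted somatic change of the 10 markers. NG2, its product, is a transmembrane proteoglycan that binds matrix and growth factors on pericytes and on glial precursors. Cspg4 read 54.1, 58.4 and 53.4 CPM in the saline libraries and 124, 127 and 92.0 CPM after dex. Every dex library was above every saline library, and dex replicate 3 was the lowest of its group. The log2 change was 1.06 (SE 0.11, edgeR adjusted p = 2.86e-05), rank 192 of the 797 genes called higher when ordered by size. Without dex replicate 3 the log2 change was 1.19 (edgeR adjusted p = 4.09e-09).

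Mcam moved the other way. It encodes CD146, an adhesion molecule of the immunoglobulin family found on both pericytes and endothelium, and lies on chromosome 9 as Cspg4 does (chr9:44134469-44142727). Its level was 69.0, 73.2 and 80.7 CPM after saline and 53.3, 55.6 and 52.9 CPM after dex. All dex libraries lay below all saline libraries. The log2 change was -0.45 (SE 0.07, edgeR adjusted p = 0.00176), and the fit of all 12 libraries together gave the same size with an adjusted p of 0.0559, outside the threshold. Without dex replicate 3 the log2 change was -0.44 (edgeR adjusted p = 0.00169). An antisense gene, Gm10687, overlaps Mcam and held 3 to 29 counts per library. Because it was not stated whether counting used strand, reads of the 2 genes may not be fully separated.

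For the PDGF receptor gene itself no difference passed the test. Pdgfrb, which gives mural cells their response to PDGF-B (plus strand, chr18:61045150-61085061), read 342, 364 and 368 CPM after saline and 379, 380 and 310 CPM after dex. The groups overlapped on both sides, and the log2 change was -0.00 (SE 0.08, edgeR adjusted p = 0.999), or 0.09 without dex replicate 3 (edgeR adjusted p = 0.47). Notch3, the Notch receptor of arterial smooth muscle and pericytes (minus strand, chr17:32120820-32166880), read 238, 229 and 238 CPM after saline and 258, 244 and 213 CPM after dex. Its groups overlapped as well, with a log2 change of 0.03 (SE 0.07, edgeR adjusted p = 0.878), or 0.10 without dex replicate 3 (edgeR adjusted p = 0.385), and its antisense neighbour Gm17276 held 0 to 5 counts per library. Rgs5 encodes a GTPase-activating protein that dampens G protein signalling and is widely used as a pericyte marker (plus strand, chr1:169655501-169695813). It read 39.1, 46.4 and 41.2 CPM after saline and 48.4, 41.1 and 27.5 CPM after dex, and its groups overlapped. The log2 change was -0.11 (SE 0.16, edgeR adjusted p = 0.756), and without dex replicate 3 it turned to 0.09 (edgeR adjusted p = 0.658).

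Transcripts of both subunit genes of the potassium channel rose in the somatic libraries. Kcnj8 read 33.2, 30.4 and 33.0 CPM after saline and 57.7, 58.0 and 48.3 CPM after dex. Abcc9 read 57.3, 49.8 and 58.2 CPM after saline and 85.1, 78.5 and 77.7 CPM after dex. For both genes the 3 dex libraries lay above the 3 saline libraries without overlap. The log2 change was 0.77 for Kcnj8 (SE 0.09, edgeR adjusted p = 0.000131) and 0.55 for Abcc9 (SE 0.08, edgeR adjusted p = 0.000423). Without dex replicate 3 these were 0.85 (edgeR adjusted p = 2.06e-06) and 0.58 (edgeR adjusted p = 0.000117).

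The paralogs of the channel and the genes around the pair were looked at next. Kcnj11 and Abcc8, which encode the pore and receptor of the pancreatic form of the channel, were at 0.0703 and 0.0198 FPKM in saline somatic cells, below the low-count filter. Within 250 kb on either side of the pair, a window chosen after the values were seen, 8 other genes were tested and none was called, their log2 changes running from -1.17 (Spx) to 0.15 (Golt1b). The ratio of Kcnj8 to Abcc9 in FPKM, also chosen afterwards, was 1.90, 2.00 and 1.87 in the saline libraries and 2.23, 2.43 and 2.04 in the dex libraries. The groups of this ratio did not overlap, and the difference was not tested further. The antisense gene within Abcc9, 5330439B14Rik, held 0 to 2 counts per library.

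For the contractile and cytoskeletal genes, no difference passed the test. Acta2 read 118, 111 and 112 CPM after saline and 133, 115 and 109 CPM after dex, with overlapping groups and a log2 change of 0.07 (SE 0.07, edgeR adjusted p = 0.639), or 0.13 without dex replicate 3 (edgeR adjusted p = 0.297). Myh11, the smooth muscle myosin heavy chain and a specific contractile marker (minus strand, chr16:14194535-14291372), read 33.7, 31.5 and 34.8 CPM after saline and 36.0, 33.4 and 33.5 CPM after dex. Its groups overlapped too, with a log2 change of 0.05 (SE 0.09, edgeR adjusted p = 0.816), or 0.06 without dex replicate 3 (edgeR adjusted p = 0.772). Des, on the plus strand at chr1:75360329-75368579, read 110, 98.7 and 107 CPM after saline and 129, 135 and 110 CPM after dex. The lowest dex library (109.8 CPM) lay just above the highest saline library (109.6 CPM), and the log2 change of 0.25 (SE 0.08, edgeR adjusted p = 0.0729) did not pass the threshold. Without dex replicate 3 it was 0.33 (edgeR adjusted p = 0.0041), the only call of Des in the 6 fits that left out 1 library. With that library left out 5 of the 10 markers were called, and 1881 of all genes against 1354 in the main test. The antisense gene within Des, Gm15179, held 0 to 21 counts per library.

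Counted by overlap, 5 of the 10 markers had somatic dex and saline libraries that did not overlap: Cspg4, Kcnj8, Abcc9 and Des with dex above, and Mcam with dex below. Among all genes tested, 25.6% had groups that did not overlap in either direction. The other 5 markers overlapped. The plot of somatic levels by library shows the same division.

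**Figure D2:**
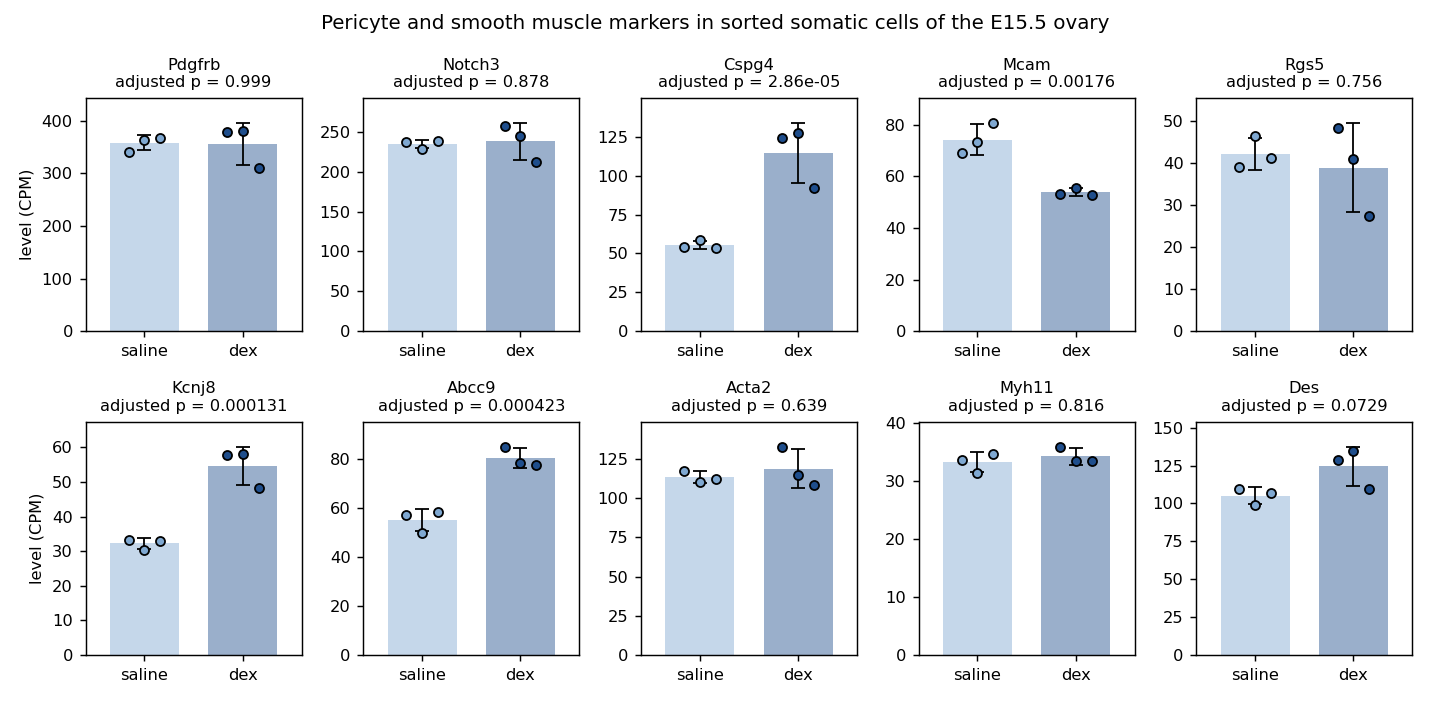
Level in CPM (linear axis from 0, one scale per gene) of each marker in the 3 saline and 3 dex somatic libraries, with bars for means, error bars for SD, points for libraries and the edgeR adjusted p above each panel. The dex points of Cspg4, Kcnj8 and Abcc9 lie above the saline points and those of Mcam below, while in the dex group the third point is the lowest for every gene but Myh11.

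The makeup of the somatic libraries was set beside these values. The summed level of 10 endothelial genes was 366 to 441 CPM after saline and 325 to 371 CPM after dex, with Cdh5, Tie1 and Egfl7 called lower, Emcn called higher and 6 not called. Relative to this endothelial sum, Cspg4 was 0.121 to 0.149 after saline and 0.283 to 0.361 after dex, Kcnj8 0.0749 to 0.0906 and 0.148 to 0.168, and Abcc9 0.127 to 0.156 and 0.212 to 0.248. Mcam was 0.183 to 0.188 of the sum after saline and 0.150 to 0.163 after dex. Pdgfrb was 0.835 to 0.934 of the sum after saline and 0.954 to 1.10 after dex, Notch3 0.540 to 0.649 and 0.654 to 0.750, and Des 0.243 to 0.299 and 0.337 to 0.375. These 7 ratios differed between the groups without overlap, all but that of Mcam higher after dex, and those of Rgs5, Acta2 and Myh11 overlapped. The endothelial sum itself averaged 400 ± 38.1 CPM after saline and 346 ± 22.8 CPM after dex (SD, n = 3). A lower sum raises every ratio to it. The ratio separated the groups also for Pdgfrb and Notch3, for which no difference in CPM passed the test. How many of all genes this ratio would separate was not counted. Relative to Pdgfrb in the same library, Cspg4 moved from 0.155 ± 0.00829 to 0.320 ± 0.0202 (SD, n = 3) and Kcnj8 from 0.0901 ± 0.00683 to 0.154 ± 0.00173. The proteoglycan and channel genes therefore changed relative to the PDGF receptor gene as well as relative to all genes.

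Genes of other cells in the gate also differed. The 10 stroma genes summed to 20730 to 23092 CPM after saline and 19355 to 25616 CPM after dex, with Gli1, Pdgfra and Maf called higher. Macrophage genes were 7 of 10 called lower, and their sum went from 214 to 286 CPM after saline to 60.5 to 150 CPM after dex. Of 10 pregranulosa genes, Wnt4 was called lower, and their sum was 1579 to 1705 CPM after saline and 1305 to 1673 CPM after dex. Within the dex group, replicate 3 had the lowest stroma sum and the highest pregranulosa sum. Its erythroid sum was 3270 CPM, against 8080 and 16475 CPM in replicates 1 and 2. Germ cell genes were low in the somatic libraries, summing to 2.88 to 6.07 CPM after saline and 15.2 to 20.5 CPM after dex. Most of the rise came from Dazl, called higher, at 1.17 ± 0.194 and 12.6 ± 0.174 CPM (SD, n = 3). The 3 other germ cell genes that could be tested were not called. No gene was called among 6 erythroid, 5 mesonephric, 4 glial and 5 skeletal muscle genes that could be tested. The part of these differences in the marker results was not tested.

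Further mural genes changed in both directions. Of 20 other mural markers, 18 could be tested, and 3 were called higher, 2 lower and 13 not. Ndufa4l2, which encodes a mitochondrial protein of pericytes, went from 10.0 ± 1.30 to 21.1 ± 1.32 CPM (SD, n = 3), a log2 change of 1.08 (SE 0.13, edgeR adjusted p = 0.000194). Cox4i2, a cytochrome oxidase subunit of the same cells, went from 4.62 ± 0.473 to 8.30 ± 0.863 CPM, a log2 change of 0.85 (SE 0.19, edgeR adjusted p = 0.012). In contrast, Tbx18, a transcription factor of mural and other mesenchymal cells, fell from 4.79 ± 0.383 to 0.790 ± 0.241 CPM, a log2 change of -2.58 (SE 0.32, edgeR adjusted p = 0.000191). The median log2 change of the 18 genes was 0.11.

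Of 21 smooth muscle contractile genes and regulators of serum response factor, 20 could be tested, 2 of them called higher, 2 lower and 16 not. Casq2, which encodes a calcium-binding protein of the muscle sarcoplasmic reticulum, had the largest change, from 1.02 ± 0.0496 to 5.37 ± 0.953 CPM (log2 change 2.39, SE 0.29, edgeR adjusted p = 0.000145). Srf itself, the transcription factor that binds the CArG box, fell from 180 ± 13.8 to 139 ± 5.85 CPM (log2 change -0.37, edgeR adjusted p = 0.0048). Tpm1, a tropomyosin of the thin filament, fell from 346 ± 2.11 to 279 ± 7.86 CPM (log2 change -0.30, edgeR adjusted p = 0.00584). The median of the 20 log2 changes was 0.04, with called genes in both directions.

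On the PDGF side, 2 of 6 ligand and receptor genes were called, both higher. Pdgfra, the receptor of stromal mesenchyme, went from 551 ± 35.9 to 843 ± 57.1 CPM (log2 change 0.62, SE 0.07, edgeR adjusted p = 0.000101), where Pdgfrb did not differ by the test. The ligand gene Pdgfc went from 86.3 ± 5.62 to 118 ± 14.4 CPM (log2 change 0.46, edgeR adjusted p = 0.00437). Pdgfb, the endothelial ligand for the Pdgfrb product, was at 12.48 ± 0.298 and 9.89 ± 0.957 CPM (log2 change -0.33, edgeR adjusted p = 0.205). On the Notch side, 13 genes were tested and 3 called. Jag1, a ligand for Notch receptors, fell from 71.8 ± 0.440 to 46.9 ± 5.41 CPM (log2 change -0.61, edgeR adjusted p = 0.000414). Hey1, a transcriptional target of Notch, fell from 20.5 ± 0.913 to 14.1 ± 2.33 CPM (log2 change -0.53, edgeR adjusted p = 0.0275), and Notch2, a receptor paralog of Notch3, rose from 211 ± 14.2 to 254 ± 19.9 CPM (log2 change 0.28, edgeR adjusted p = 0.0367).

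The paralogs of the remaining markers were read by family. None of 5 actin and none of 3 class II myosin genes was called, as was the case for Acta2 and Myh11. Of 7 small RGS genes tested, Rgs1 and Rgs2 were called higher and Rgs8 and Rgs16 lower, with 3 not called. The largest of these changes were in genes of low level: Rgs8 was at 0.940 CPM after saline and 0.172 CPM after dex, and Rgs1 at 2.17 and 5.17 CPM. Among 5 intermediate filament genes related to desmin, Prph (log2 change -1.14, edgeR adjusted p = 0.00988) and Nes (log2 change -0.39, edgeR adjusted p = 0.0145) fell and 3 were not called. Vim, the abundant mesenchymal filament, was at 855 ± 23.5 and 904 ± 42.5 CPM.

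**Figure D3:**
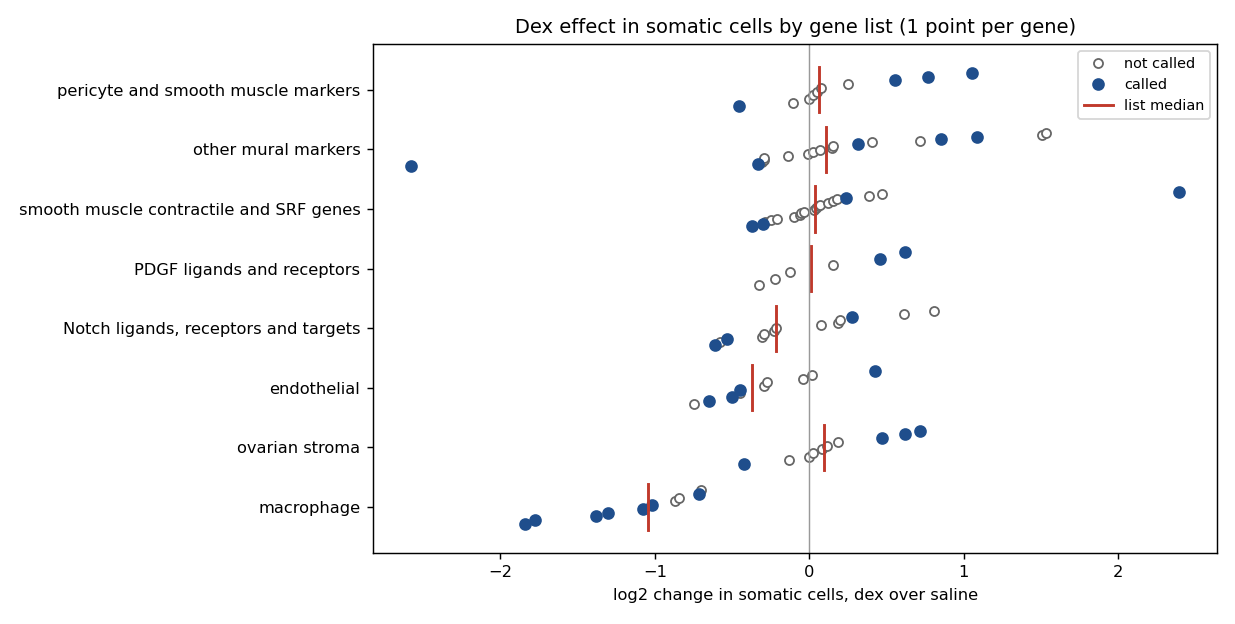
Fitted log2 change of dex over saline in somatic cells for every gene tested in 8 lists, with 1 point per gene (filled where edgeR called it), spread vertically for visibility, and a red line at each list median. The 10 markers have called genes on both sides of 0 with a median of 0.06, and the macrophage list lies wholly below 0 with a median of -1.05.

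In germ cells the markers were scarce. Of all genes, 42.9% were called lower in germ cells than in somatic cells after saline, and 42.2% after dex, and all 10 markers were among them in both comparisons. After saline the log2 difference, germ minus somatic, ran from -7.59 for Acta2 and -7.00 for Pdgfrb to -4.45 for Des and -1.27 for Mcam. As a share of the somatic mean, germ cells held 0.511% ± 0.0980 (SD, n = 3) of Acta2, 0.775% ± 0.189 of Pdgfrb and 1.88% ± 0.273 of Notch3. The channel genes Kcnj8 and Abcc9 were at 0.924% ± 0.605 and 2.16% ± 0.323, and Des reached 4.57% ± 0.696. Kcnj8 and Rgs5 were the scarcest in counts: Kcnj8 had 3, 3 and 9 counts in the saline germ libraries and 12, 5 and 3 after dex, and Rgs5 had 7, 4 and 8, then 10, 3 and 5.

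Mcam was the exception. Germ libraries read 27.2, 38.1 and 27.4 CPM after saline and 33.0, 27.7 and 40.7 CPM after dex, the same order of magnitude as in somatic cells. This was 41.6% ± 8.39 of the somatic saline mean (SD, n = 3) and 62.6% ± 12.2 of the somatic dex mean. Both comparisons called Mcam lower in germ cells, with log2 differences of -1.27 after saline (SE 0.12, edgeR adjusted p = 9.6e-08) and -0.71 after dex (SE 0.12, edgeR adjusted p = 0.000249). The other 9 markers after dex ran from -7.02 (Kcnj8) to -4.61 (Des), as the plot of all 4 groups shows.

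**Figure D4:**
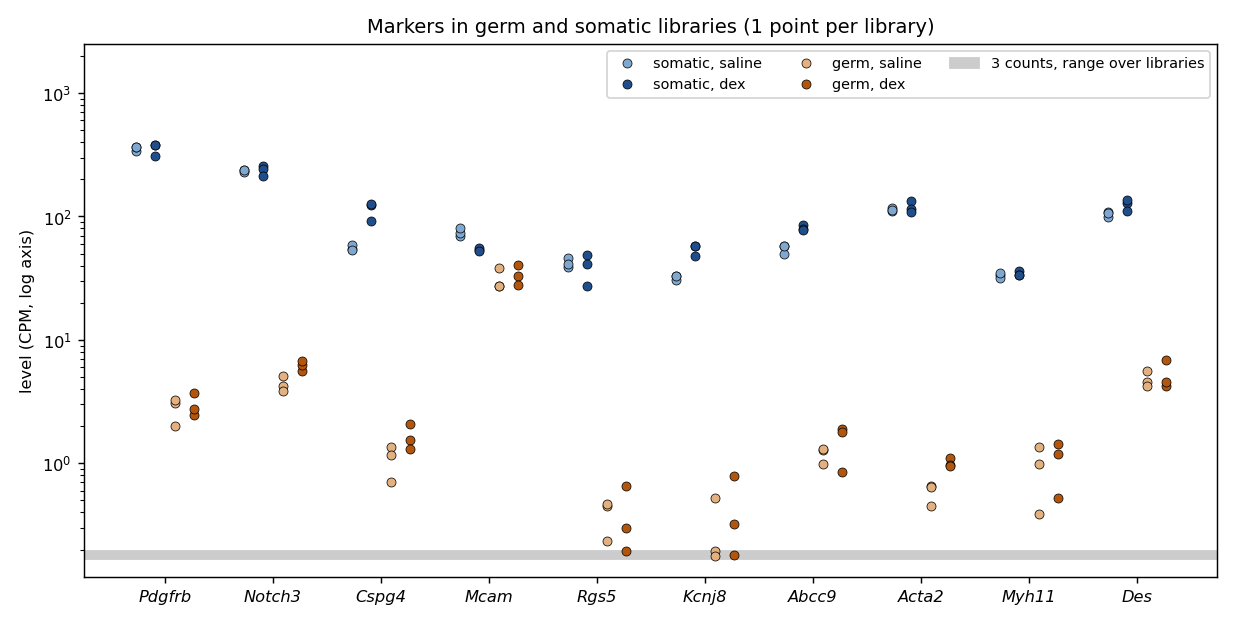
Level in CPM (log axis) of the 10 markers in somatic cells (blue) and germ cells (orange), saline light and dex dark, with 1 point per library and a grey band for 3 counts. Germ points lie far below the somatic points for every gene except Mcam, and those of Kcnj8 and Rgs5 reach the band.

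Dex changed none of the markers in germ cells by the test. Of 8 that passed the low-count filter (Kcnj8 and Rgs5 did not), edgeR called 0, with 1 at an unadjusted p under 0.05, where 11.6% of all genes were, and DESeq2 also called 0. Over all 16857 genes tested, 0.208% were called. Notch3 had the smallest p, reading 4.26, 5.14 and 3.89 CPM after saline and 5.62, 6.22 and 6.69 CPM after dex, a log2 change of 0.50 (SE 0.20, edgeR adjusted p = 0.36). Acta2 read 0.452, 0.649 and 0.638 CPM after saline and 1.11, 0.972 and 0.955 CPM after dex, a log2 change of 0.81 (SE 0.42, edgeR adjusted p = 0.501). In these 2 of 8 genes the dex libraries lay above the saline libraries without overlap, where 16.9% of all genes had groups that did not overlap in either direction. Cspg4 read 0.710, 1.36 and 1.16 CPM after saline and 2.09, 1.55 and 1.31 CPM after dex, a log2 change of 0.63 (SE 0.38, edgeR adjusted p = 0.564), with overlapping groups. Mcam had a log2 change of 0.15 (SE 0.15, edgeR adjusted p = 0.744). The standard errors of the scarce genes in germ cells (0.24 to 0.51 for Pdgfrb, Cspg4, Abcc9, Acta2, Myh11 and Des) exceeded those in somatic cells, none of which was over 0.16.

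**Figure D5:**
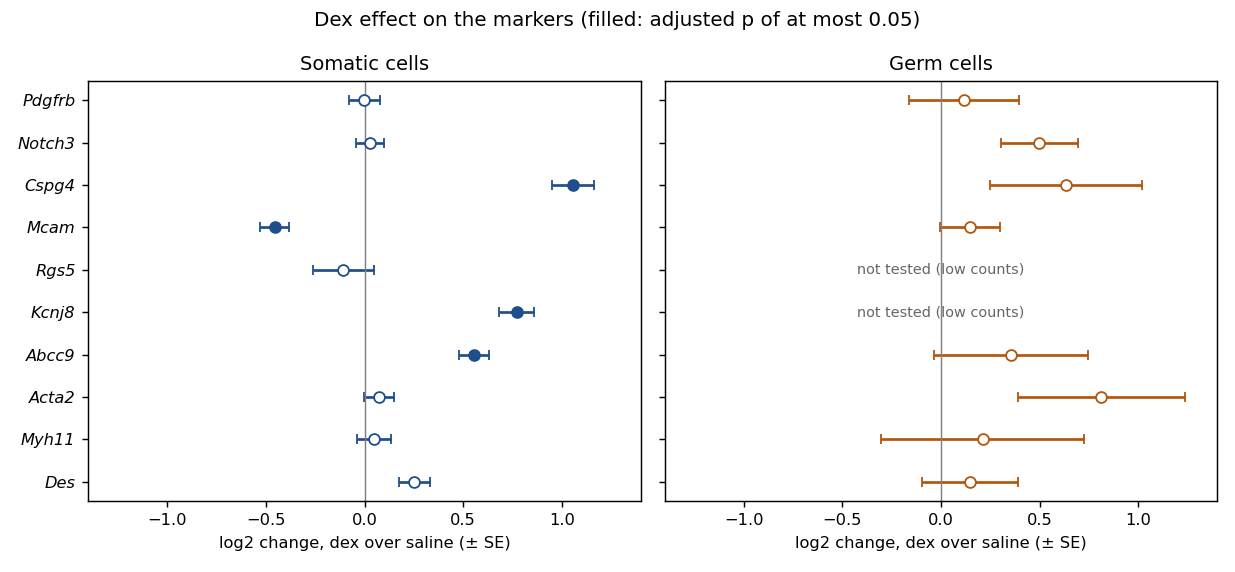
Fitted log2 change of dex over saline (± SE) for each marker in somatic cells (left) and germ cells (right), with filled points for adjusted p of at most 0.05. In somatic cells Cspg4, Kcnj8, Abcc9 and Mcam are filled, in germ cells no point is filled, and the germ error bars are wider.

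The difference of the dex response between germ and somatic cells was tested with an interaction term over all 12 libraries. Of 19390 genes, 1.62% were called, and among the 10 markers 0 were called by edgeR or DESeq2, with 3 at an unadjusted p under 0.05 by edgeR, where 15.4% of all genes were. The germ effect minus the somatic effect was 0.59 on the log2 scale for Mcam (SE 0.18, edgeR adjusted p = 0.134), 0.46 for Notch3 (SE 0.15, edgeR adjusted p = 0.157) and 0.72 for Acta2 (SE 0.29, edgeR adjusted p = 0.265). For the 3 genes that rose in the soma it was -0.45 for Cspg4 (SE 0.33, edgeR adjusted p = 0.555), -0.29 for Kcnj8 (SE 0.60, edgeR adjusted p = 0.882) and -0.20 for Abcc9 (SE 0.29, edgeR adjusted p = 0.806). The somatic calls of these genes are therefore not shown to be particular to somatic cells. The comparison for Mcam turned on the setting: it was called without the low-count filter (edgeR adjusted p = 0.00735) and without germ saline replicate 2 (log2 difference 0.77, edgeR adjusted p = 0.0266), and over all 17 alternatives its adjusted p ran from 0.00735 to 0.284.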

How the data were processed

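RNA of sorted germ and somatic cells was sequenced as read pairs after poly-A selection and random priming. The authors aligned reads to mm10 with HISAT2 2.0.5 and counted them per gene with featureCounts 1.5.0-p3, both per the submitters' notes. Raw counts and FPKM values were deposited by the authors. The setting for strand and for reads mapping to several places is not given in the sources used here. Tables of the authors' own DESeq2 1.20.0 comparisons hold fold changes and p-values and were not used.

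Counts were tested with edgeR 4.0.16 (R 4.3.3): quasi-likelihood test, TMM scaling, filterByExpr, 3 libraries per group, Benjamini-Hochberg adjustment over all genes tested and a threshold of 0.05. Standard errors are those implied by the F statistic. CPM used TMM factors over all 12 libraries, and ± is SD. The floor of 3 counts covers counting error only. The alternatives were DESeq2 1.42.0, DESeq2 size factors in edgeR, library totals alone, no low-count filter, all 12 libraries in 1 fit, a replicate block and each library left out. The scripts were tested on simulated data. All 10 markers were named throughout. From each other list, up to 3 called genes with the largest somatic change were given values, paralogs could be named for their level, and any further gene was named after its values were seen. The markers and the other lists were chosen with earlier results of these data known.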

Additional observations from a re-analysis of the deposited data

How the results depend on the processing

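Cspg4, Kcnj8 and Abcc9 kept their direction and their call in somatic cells in 12 of 12 alternatives, and Mcam in 11 of 12, the exception being the fit of all 12 libraries (3 markers called, Mcam adjusted p = 0.0559). With no low-count filter Des was also called (log2 change 0.24, edgeR adjusted p = 0.0203), giving 5. Leaving out each library in turn gave 4 to 5 called markers. Log2 changes over these alternatives ran from 0.96 to 1.19 for Cspg4, 0.71 to 0.85 for Kcnj8, 0.49 to 0.59 for Abcc9 and -0.51 to -0.39 for Mcam. In germ cells 0 markers were called, and against the soma 10, under every alternative. For the difference of the dex effects, 1 marker (Mcam) was called without the low-count filter, and 0 to 1 when each library was left out. The cause was not tested.

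Between dex and saline, deviations of same-numbered libraries correlated at 0.163, -0.0365 and 0.0719 in somatic cells. In germ cells they correlated at 0.256, -0.0128 and 0.095. Only number 1 correlated best with its own number. With other numbers it correlated at -0.113 to -0.0474 in somatic cells and -0.187 to -0.105 in germ cells. Between germ and somatic cells of 1 treatment, same-numbered libraries correlated at 0.0865 to 0.168. There each library correlated best with its own number, a hint from the data only. Under the replicate block 4 markers were called in somatic cells, 0 in germ cells and 0 for the difference, and 1520 genes in somatic cells against 1354. The block gives each number 1 shift shared by all groups of a fit. For the difference it therefore does not model pools shared by germ and somatic cells within a treatment.

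Counts over all genes moved more. Somatic calls were 803 with all 12 libraries in 1 fit and 754 (without saline replicate 3) to 1881 (without dex replicate 3) with 1 library left out. Germ calls, 35 in the main test, were 420 without filter, 158 with DESeq2, 64 in the fit of 12 and 17 (without dex replicate 2 or saline replicate 3) to 81 (without dex replicate 1) with 1 library left out. Calls for the difference, 314, were 727 without filter, 620 with DESeq2 and 143 (without somatic saline replicate 3) to 383 (without germ dex replicate 1) with 1 library left out. With library totals alone, 53.8% of germ calls were higher against 42.9%, and 46.1% of calls for the difference against 30.3%. Without filter and with DESeq2 the median gene lay 0.142 and 0.21 (log2) higher in germ cells after saline and 0.268 and 0.319 after dex. Depth limits the germ values of Kcnj8 and Rgs5, at 3 to 12 counts.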
